A study of Mus musculus with 12 samples.

Results

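Aminoacyl-tRNA synthetases, the enzymes that load each transfer RNA with its amino acid, were followed at the mRNA level in microglia, the resident macrophages of the brain. The genes were taken by symbol from a table of 24328 gene symbols: every symbol built from a one-letter amino acid code and "ars", with or without a trailing 2, and Eprs, Ears2, Pars2, Farsa, Farsb and Fars2. This gave 37 genes, of which 18 encode cytosolic enzymes, 17 encode mitochondrial enzymes and 2, Gars and Kars, encode the enzymes of both compartments. All 37 passed the filter on low counts, as did 12695 genes in all. The rule used symbols and no measured value, but it was chosen with earlier results of these data known.

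RNA was sequenced from microglia sorted by FACS from the brains of wild-type Balb/c mice, in 12 libraries from 3 groups of 4 mice. Control mice received no transplant. Mice of the syngeneic and allogeneic groups were irradiated at a lethal dose and given a graft of 5000000 bone marrow cells with 300000 T cells, and their microglia were taken on day 14, when graft-versus-host disease (GvHD) is at its height per the labels. Irradiation and the graft were thus shared by both transplanted groups, and neither was given to the controls, so that they cannot be told apart in a comparison with control. No source used here gives the ages or the donor strains.

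Each cell needs a synthetase for every amino acid used in the cytosol, and mitochondria use a second, nuclear-encoded set to translate the proteins encoded by mitochondrial DNA. Several cytosolic synthetases sit in a large assembly, the multisynthetase complex, held together by the non-catalytic proteins Aimp1, Aimp2 and Eef1e1. Eprs joins glutamyl and prolyl synthetase in a single protein chain, and cytosolic phenylalanyl synthetase is built from the different subunits Farsa and Farsb. When amino acids run short, uncharged transfer RNA activates the eIF2 kinase Gcn2 (gene Eif2ak4), and the transcription factor Atf4 then switches on amino acid transport and synthesis genes and many cytosolic synthetase genes. Cytosolic tryptophanyl synthetase, Wars, is known as an interferon-gamma inducible gene.

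Library totals were 32652208 to 46126118 counts. Levels below are CPM, counts scaled to a common library size with TMM factors, and fold changes are on the log2 scale with their standard error (SE), 4 libraries a group. A gene is said to have risen or fallen when edgeR's quasi-likelihood test gave a Benjamini-Hochberg adjusted p under 0.05 over all 12695 genes. The 6 microglia markers summed to 39574 to 45189 CPM in control, 35007 to 37234 in syngeneic and 25076 to 26295 in allogeneic libraries, and all 6 were present in each group. They did not hold steady. Of the 6, 2 rose and 4 fell in syngeneic against control, and 1 rose and 5 fell in allogeneic against control. In allogeneic against syngeneic 5 fell. Mean P2ry12 was 12080.5 CPM in control, 17287 in syngeneic and 9081 in allogeneic libraries, and mean Csf1r 11490.5, 3525 and 2879. Markers of other cell types moved too. The 8 choroid plexus markers summed to 21.2 to 143 CPM in control, 1419 to 2462 in syngeneic and 417 to 786 in allogeneic libraries. In the same order, 7 monocyte and engrafted macrophage markers summed to 207 to 250, 646 to 752 and 1901 to 2390 CPM. All 8 choroid plexus markers and 5 of the 7 monocyte markers rose in syngeneic against control. In allogeneic against syngeneic 4 of those 7 rose and 2 of those 8 fell. In allogeneic against control 6 of the 7 monocyte markers rose and 1, Ccr2, fell. Mean Ccr2 was 9.485 CPM in control, 8.013 in syngeneic and 3.997 in allogeneic libraries. Most of the monocyte sum was Lyz2, with means of 214 of 225, 676 of 703 and 1934 of 2072 CPM in the same order. T cell markers summed to at most 3.37 CPM in any library, and Cd3e was at 0 in each control and syngeneic library. The nuclear RNA Malat1 took 0.562% to 0.815% of counts in control and at most 0.0117% in transplanted libraries. The part of these differences in the results below was not tested. In sorted bulk RNA, fewer cells of a type and less RNA per cell cannot be told apart.

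Levels per kilobase (kb) were taken over all annotated exons of a gene joined, which can exceed the length of any single transcript. On this scale the median of the mitochondrial genes lay far below that of the cytosolic ones. In control libraries the median mean level was 23.2 CPM per kb over the 18 cytosolic genes and 3.54 over the 17 mitochondrial genes. In syngeneic libraries these medians were 20.9 and 2.33, and in allogeneic libraries 21.0 and 2.78. Cytosolic levels in control ran from 8.81 CPM per kb for Vars, the valyl synthetase, to 134 ± 14.7 (SD, n = 4) for Nars, the asparaginyl synthetase. Farsa came next among cytosolic genes at 55.2 ± 7.40 (n = 4), and Kars, the lysyl synthetase of both compartments, stood at 45.5 ± 4.53 (n = 4); the library ranges of Farsa and Kars overlapped. Mars2, the mitochondrial methionyl synthetase, had the lowest control mean at 0.607 CPM per kb.

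Lars2, the mitochondrial leucyl synthetase, had the highest level of all 37 genes in every group. Its 248 ± 12.5 CPM per kb in control compared with 11.95 for Hars2, the next mitochondrial gene, and it held 78.7% to 80.5% of the summed mitochondrial CPM in control libraries, 88.2% to 89.0% in syngeneic and 89.5% to 91.7% in allogeneic libraries. The ribosomal RNA precursor Rn45s, which also varied between libraries, stood at 11126 to 15617 CPM in control, 12306 to 18127 in syngeneic and 16198 to 20989 in allogeneic libraries. With Rn45s left out of the table, an alternative added after the data were seen, the Lars2 changes given below were 0.34, 0.69 and 1.03, in place of 0.34, 0.69 and 1.03. Leaving it out alters only the scaling and keeps the Lars2 counts, so it cannot show whether Rn45s reads are among them. The part of Rn45s in the Lars2 counts was not tested. Without Lars2, the 16 other mitochondrial genes summed to 229 to 255 CPM in control, 191 to 219 in syngeneic and 193 to 224 in allogeneic libraries. Both transplanted ranges lay below the control range and overlapped each other.

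Replicates of the mitochondrial genes scattered more. The median coefficient of variation within a group was 13.4% in control, 10.2% in syngeneic and 13.8% in allogeneic libraries for cytosolic genes, against 19.2%, 28.1% and 28.3% for mitochondrial genes. Standard errors of the log2 fold change in syngeneic against control ran from 0.08 to 0.18 for cytosolic genes and from 0.06 to 0.75 for mitochondrial genes, so that changes of the rarer mitochondrial transcripts are known less precisely.

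**Figure D1:**
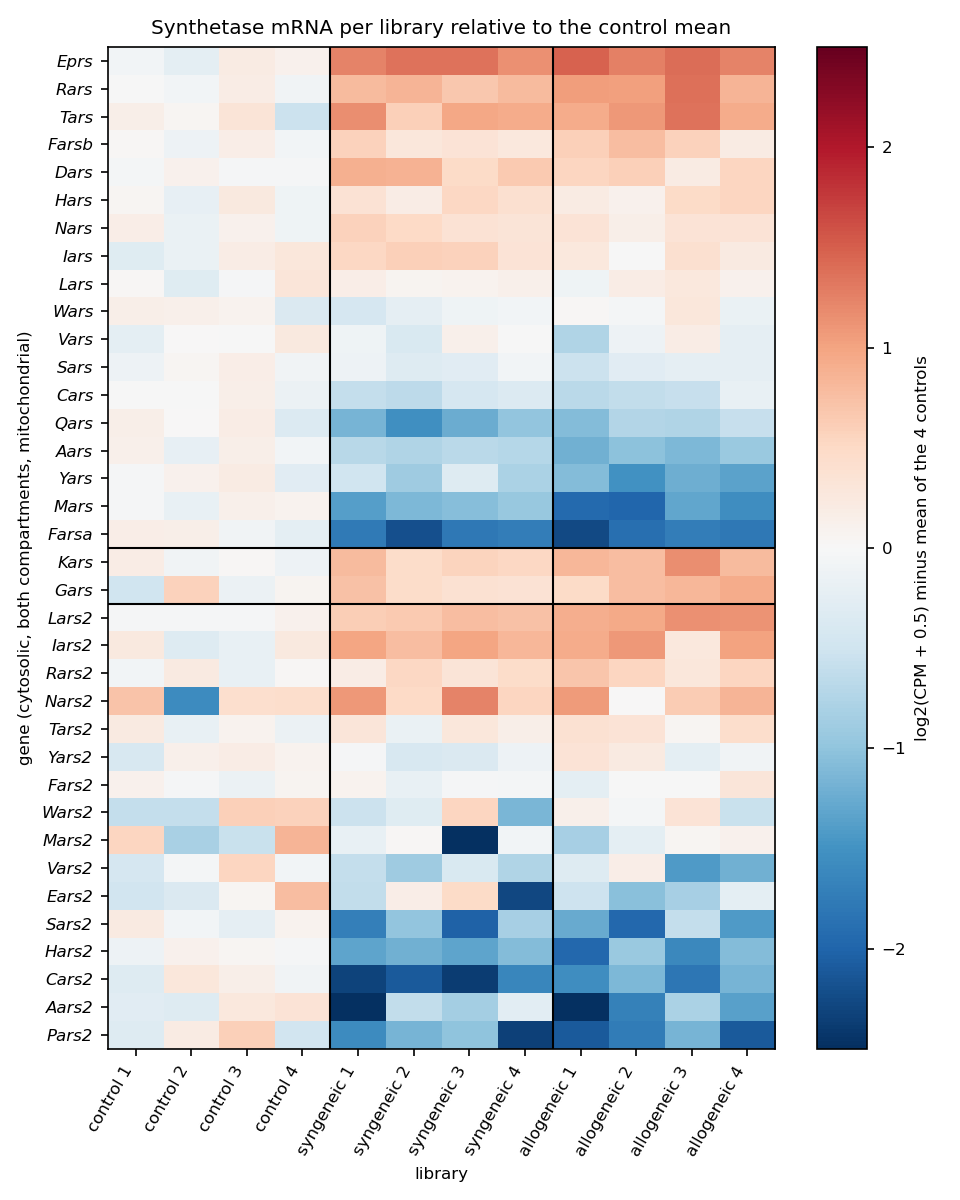
Level of 36 of the 37 synthetase genes (rows) in each of the 12 libraries (columns), as log2(CPM + 0.5) minus the mean of the 4 control libraries; colours are cut at 2.5 in either direction, and lines separate the groups and the cytosolic, both-compartment and mitochondrial genes. Red rows such as Eprs and Rars and blue rows such as Farsa and Mars hold their colour in all 8 transplanted libraries, while Lars and Fars2 stay near white.

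Syngeneic and control microglia were compared to see what followed irradiation and a matched graft. The synthetase genes split in both directions. Of 37, 12 rose (32.4%, beside 26.4% of all genes tested), 10 fell (27.0%, beside 25.6%) and 15 were not called, with a median log2 fold change of -0.10 beside -0.03 for all genes. These shares are near those of all genes. Among the 18 cytosolic genes 8 rose and 6 fell, and among the 17 mitochondrial genes 3 rose and 4 fell. Scaled by library totals alone, the genes called over the whole table were 2723 higher and 3968 lower, in place of 3357 and 3253, and of the 37 synthetase genes 8 rose and 13 fell.

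Eprs, the glutamyl-prolyl synthetase, rose most among the cytosolic genes. Its control libraries held 110, 96.6, 131 and 123 CPM, the syngeneic 270, 294, 294 and 252, and the allogeneic 320, 276, 300 and 273. Every transplanted library lay above every control library, and the transplanted groups overlapped each other. The syngeneic change was 1.27 ± 0.09 (edgeR adjusted p = 3.16e-09).

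Rars, the arginyl synthetase, had 45.2, 43.3, 52.1 and 42.8 CPM in control, 79.9, 82.8, 73.5 and 79.3 in syngeneic, and 94.7, 93.6, 120 and 83.0 in allogeneic libraries, so that the 3 groups did not overlap. Dars, the aspartyl synthetase, had 62.0, 68.7, 62.9 and 62.6 CPM in control, 120, 117, 89.8 and 101 in syngeneic, and 93.3, 96.6, 74.3 and 93.2 in allogeneic libraries. For Dars both transplanted groups lay above control and overlapped each other. In syngeneic against control Rars rose by 0.78 ± 0.11 (edgeR adjusted p = 1.42e-05) and Dars by 0.74 ± 0.11 (edgeR adjusted p = 1.87e-05). The other cytosolic genes that rose were Tars for threonine (0.90 ± 0.16), Iars for isoleucine (0.50 ± 0.13), Nars (0.43 ± 0.08), Farsb (0.37 ± 0.13) and Hars for histidine (0.36 ± 0.13). With library totals only the calls of Iars (0.32, edgeR adjusted p = 0.0551) and Hars (0.20, edgeR adjusted p = 0.192) were lost.

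Farsa, the catalytic alpha subunit of cytosolic phenylalanyl synthetase, showed the largest fall of a cytosolic gene. Its control libraries held 113, 111, 94.3 and 84.7 CPM, the syngeneic 28.9, 21.5, 28.6 and 29.8, and the allogeneic 20.5, 26.7, 29.8 and 28.6. Control lay far above both transplanted groups, which overlapped. The syngeneic change was -1.89 ± 0.15 (edgeR adjusted p = 5.92e-09).

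Its partner Farsb, the beta subunit, went the other way; it was added to the genes given by library after its values were seen. Farsb had 47.0, 42.5, 52.4 and 44.1 CPM in control, 68.9, 56.2, 58.8 and 55.9 in syngeneic, and 69.9, 79.0, 69.8 and 53.7 in allogeneic libraries. Exons of Farsb overlap those of Sgpp2 on the opposite strand over 248 bases, 11.3% of its length, in the GENCODE annotation. Without a known strand setting its counts, and the ratio below, are uncertain. The ratio of Farsb to Farsa CPM was 0.383 to 0.555 in control libraries, 1.87 to 2.61 in syngeneic and 1.88 to 3.41 in allogeneic libraries. Control ratios did not overlap those of either transplanted group. Per kilobase, Farsa and Farsb stood at 55.2 and 21.1 CPM per kb in control, 14.9 and 27.3 in syngeneic, and 14.5 and 31.0 in allogeneic libraries, so that the order of the subunits was exchanged. The 2 subunits are present in equal numbers in the enzyme, and protein was not measured here. The Farsb call in syngeneic against control was lost with the offset for GC content and length, with library totals only, and without control replicate 2 or syngeneic replicate 1 (edgeR adjusted p = 0.054 to 0.077 for the last pair).

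**Figure D2:**
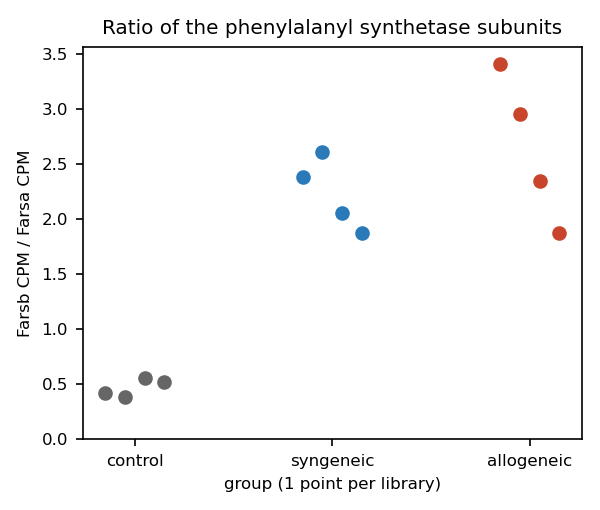
Ratio of Farsb to Farsa CPM (vertical axis, no unit) in each library, 4 points per group. Control libraries sit between 0.383 and 0.555 and transplanted libraries between 1.87 and 3.41.

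Qars, the glutaminyl synthetase, had 96.9, 87.9, 100.3 and 69.0 CPM in control, 38.7, 30.1, 36.6 and 43.9 in syngeneic, and 41.3, 52.4, 51.8 and 58.8 in allogeneic libraries. Mars, the methionyl synthetase that serves initiation and elongation, had 66.7, 60, 74.1 and 72.6 CPM in control, 25.9, 30.8, 32.1 and 35.0 in syngeneic, and 17.5, 16.9, 27.3 and 22.9 in allogeneic libraries. For both genes control lay above all transplanted libraries. Syngeneic against control, Qars fell by 1.25 ± 0.15 (edgeR adjusted p = 1.03e-06) and Mars fell by 1.14 ± 0.16 (edgeR adjusted p = 6.74e-06).

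Aars, the alanyl synthetase, had 223, 175, 226 and 195 CPM in control, 126, 120, 128 and 124 in syngeneic, and 87.9, 99.9, 93.5 and 107 in allogeneic libraries. The 3 groups of Aars did not overlap. Aars shares 1326 exon bases, 23.1% of its length, with Exosc6 on the same strand in the GENCODE annotation, so its counts are uncertain. Yars, the tyrosyl synthetase, had 57.3, 63.2, 67.1 and 48.1 CPM in control, 41.2, 31.4, 46.4 and 33.6 in syngeneic, and 27.4, 20.2, 24.7 and 23.0 in allogeneic libraries, again in 3 ranges that did not overlap. Syngeneic Aars changed against control by -0.72 ± 0.09, Yars by -0.63 ± 0.15 and Cars, the cysteinyl synthetase, by -0.51 ± 0.13. With the offset for GC content and length these 3 calls were lost, and the changes were -0.13, -0.19 and -0.03.

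Members that rose and fell differed in base composition. In syngeneic against control the median transcript GC content was 46.9% for the 12 that rose and 52.2% for the 10 that fell, beside 46.4% and 52.8% for all genes that rose and fell. In allogeneic against control it was 46.9% for the 12 that rose and 52.9% for the 12 that fell, beside 46.7% and 52.5%. The part of GC content in the calls is given only through the offset for GC content and length.

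Genes of the multisynthetase complex were called in both directions. Of its 8 catalytic genes, Eprs, Iars, Rars, Kars and Dars rose in syngeneic against control, Mars and Qars fell, and Lars, the leucyl synthetase, was not called (0.10 ± 0.12, 95% interval -0.16 to 0.36). Their summed level was 542 to 636 CPM in control, 780 to 844 in syngeneic and 824 to 936 in allogeneic libraries. The 3 scaffold genes, none of them a synthetase, all rose: Eef1e1 by 1.20 ± 0.15, Aimp1 by 0.81 ± 0.11 and Aimp2 by 0.50 ± 0.13. Of the 11 single-compartment cytosolic genes outside the complex, 4 rose and 4 fell. By the 2 structural classes of catalytic domain, 6 of 19 class I genes rose and 5 fell, and 6 of 18 class II genes rose and 5 fell. Eprs, which joins 2 synthetases, was counted in class I only, and Farsb was counted in class II with Farsa. Over all genes 26.4% rose and 25.6% fell, so a mix of directions is not particular to the complex or the classes.

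Among the mitochondrial genes the falls were larger than the rises. Cars2 for cysteine fell by 2.37 ± 0.36, Pars2 for proline fell by 1.63 ± 0.40, Sars2 for serine fell by 1.39 ± 0.34 and Hars2 for histidine fell by 1.26 ± 0.20, the last of these at edgeR adjusted p = 3.44e-05. Hars2 ran from 36.5 to 43.2 CPM in control and from 15.6 to 18.6 in syngeneic libraries, while Cars2, Pars2 and Sars2 stood at 16.0 CPM or less in every library. None of these 4 genes, already called lower, overlapped between control and syngeneic libraries. How often this holds over all genes was not counted. Hars2 shares 195 exon bases with its neighbour Hars in the GENCODE annotation, and no source used here says how such reads were assigned.

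Lars2, Iars2 for isoleucine and Rars2 for arginine rose. Lars2 had 940, 944, 942 and 1039 CPM in control, 1473, 1517, 1644 and 1612 in syngeneic, and 1818, 1851, 2121 and 2098 in allogeneic libraries, with no overlap between any of the groups. The change of Lars2 in syngeneic against control was 0.69 ± 0.06 (edgeR adjusted p = 6.46e-08), that of Iars2 0.90 ± 0.21 and that of Rars2 0.38 ± 0.15. Iars2 overlaps exons of Rab3gap2 on the opposite strand over 30.5% of its length, so its counts are uncertain without a known strand setting. The Rars2 call was lost in 8 of 12 fits that left out 1 library (edgeR adjusted p = 0.0521 to 0.12 there), and its change was -0.03 with the offset for GC content and length.

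Ratios of the cytosolic to the mitochondrial gene, per length, were taken for the 14 amino acids with a separate single gene for each compartment. For histidine the ratio of Hars to Hars2 stood at 1.78 to 2.57 in control, 5.91 to 8.07 in syngeneic and 4.64 to 10.5 in allogeneic libraries. For cysteine, where both genes fell, Cars to Cars2 was 2.89 to 4.50 in control, 9.67 to 17.9 in syngeneic and 5.37 to 9.59 in allogeneic libraries. For serine, Sars to Sars2 was 3.14 to 5.33 in control, 6.55 to 15.04 in syngeneic and 5.31 to 14.3 in allogeneic libraries. In each of these 3 pairs the control ratios lay below all transplanted ratios, apart from Sars and Sars2, where the allogeneic range began just below the control maximum. For leucine the cytosolic gene was the minor one, with Lars to Lars2 at 0.047 to 0.065 in control, 0.035 to 0.042 in syngeneic and 0.028 to 0.034 in allogeneic libraries. Tars to Tars2 was also higher in both transplanted groups, at 1.15 to 1.77 in control, 2.45 to 2.73 in syngeneic and 2.11 to 3.79 in allogeneic libraries. Other pairs stood apart from control in a single group. Vars to Vars2 was higher in each syngeneic library than in any control library, with medians of 4.07 and 3.04. In allogeneic libraries the ratio was lower for Yars to Yars2 (2.73 to 4.71, beside 7.19 to 12.3 in control) and for Mars to Mars2 (12.8 to 20.7, beside 24.6 to 71.4). In the remaining pairs the ratios of each transplanted group overlapped those of control.

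Allogeneic and control microglia were compared next; this comparison shares its control libraries with the one above, so the values are given side by side and not as a second line of evidence. Of 37 genes 12 rose (32.4%, beside 28.2% of all genes), 12 fell (32.4%, beside 29.1%) and 13 were not called, with a median of 0.02 beside -0.07 for all genes. These shares too are near those of all genes. By compartment 7 cytosolic genes rose and 7 fell, both Gars and Kars rose, and 3 mitochondrial genes rose and 5 fell. With library totals only, 5 of the 37 rose in place of 12 and 15 fell in place of 12, and among all genes 2453 were called higher and 5259 lower, in place of 3576 and 3697.

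Eprs rose by 1.34 ± 0.09 (edgeR adjusted p = 8.02e-10), Rars by 1.09 ± 0.11, Tars by 1.06 ± 0.16 and Lars2 by 1.03 ± 0.07. Kars had 116, 95.5, 104 and 93.4 CPM in control, 177, 141, 151 and 145 in syngeneic, and 182, 175, 229 and 177 in allogeneic libraries. Allogeneic Kars rose by 0.90 ± 0.11 against control (edgeR adjusted p = 7.58e-07), and syngeneic Kars by 0.58 ± 0.11 (edgeR adjusted p = 0.000133). Only the transplanted groups overlapped each other.

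Gars, the glycyl synthetase of both compartments, had 12.4, 26.7, 15.9 and 18.7 CPM in control, 30.0, 24.5, 23.2 and 23.0 in syngeneic, and 25.1, 30.5, 32.0 and 34.1 in allogeneic libraries. Control replicate 2 was as high as the transplanted libraries, and all groups overlapped. Allogeneic Gars rose by 0.72 ± 0.20 against control (edgeR adjusted p = 0.00499), and syngeneic Gars was not called at 0.45 ± 0.20 (edgeR adjusted p = 0.0694). The allogeneic call was lost with library totals only.

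Farsa fell by 1.93 ± 0.15 in allogeneic against control (edgeR adjusted p = 2.59e-09), Mars fell by 1.69 ± 0.16, Yars fell by 1.31 ± 0.15 and Aars fell by 1.08 ± 0.09. Among mitochondrial genes Pars2 fell by 1.97 ± 0.40, Aars2 for alanine fell by 1.64 ± 0.51, Cars2 fell by 1.54 ± 0.35, Hars2 fell by 1.37 ± 0.20 and Sars2 fell by 1.30 ± 0.34. The smaller falls were Qars (-0.79 ± 0.14), Cars (-0.51 ± 0.13) and Sars (-0.31 ± 0.10), and the smaller rises Iars2 (0.86 ± 0.21), Farsb (0.55 ± 0.13), Rars2 (0.52 ± 0.15), Dars (0.48 ± 0.11), Hars (0.34 ± 0.13) and Nars (0.29 ± 0.08). Of the 24 calls in this comparison, 5 rises (Eprs, Kars, Lars2, Rars and Tars) and 9 falls (Aars, Cars2, Farsa, Hars2, Mars, Pars2, Qars, Sars2 and Yars) held under every alternative run. In syngeneic against control 8 of 12 rises and 7 of 10 falls did. With the offset for GC content and length, the allogeneic falls of Aars2, Cars and Sars and rises of Dars, Hars and Rars2 were lost. For 12 of the 37 genes no comparison gave a call with TMM scaling, among them Lars, Vars and Wars in the cytosol and Fars2, Mars2, Nars2 and Tars2 in mitochondria. Their changes ran from -0.72 (Vars2) to 0.72 (Nars2) in syngeneic against control and from -0.80 (Ears2) to 0.51 (Nars2) in allogeneic against control. Several of their intervals are wide, such as -2.27 to 0.93 for Mars2 in syngeneic against control, so that a missing call does not show equal levels. Besides Wars, 3 of these genes were called against control under another scaling. With the offset for GC content and length, Vars changed by 0.55 (edgeR adjusted p = 0.0211) in syngeneic and 0.63 (0.00865) in allogeneic microglia, and Tars2 by 0.45 (0.00929) and 0.64 (0.000582). With library totals only, Vars changed by -0.58 (edgeR adjusted p = 0.00962) in allogeneic microglia, opposite to its sign with the offset, and Vars2 by -0.89 (0.0321) in syngeneic and -0.98 (0.0166) in allogeneic microglia.

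**Figure D3:**
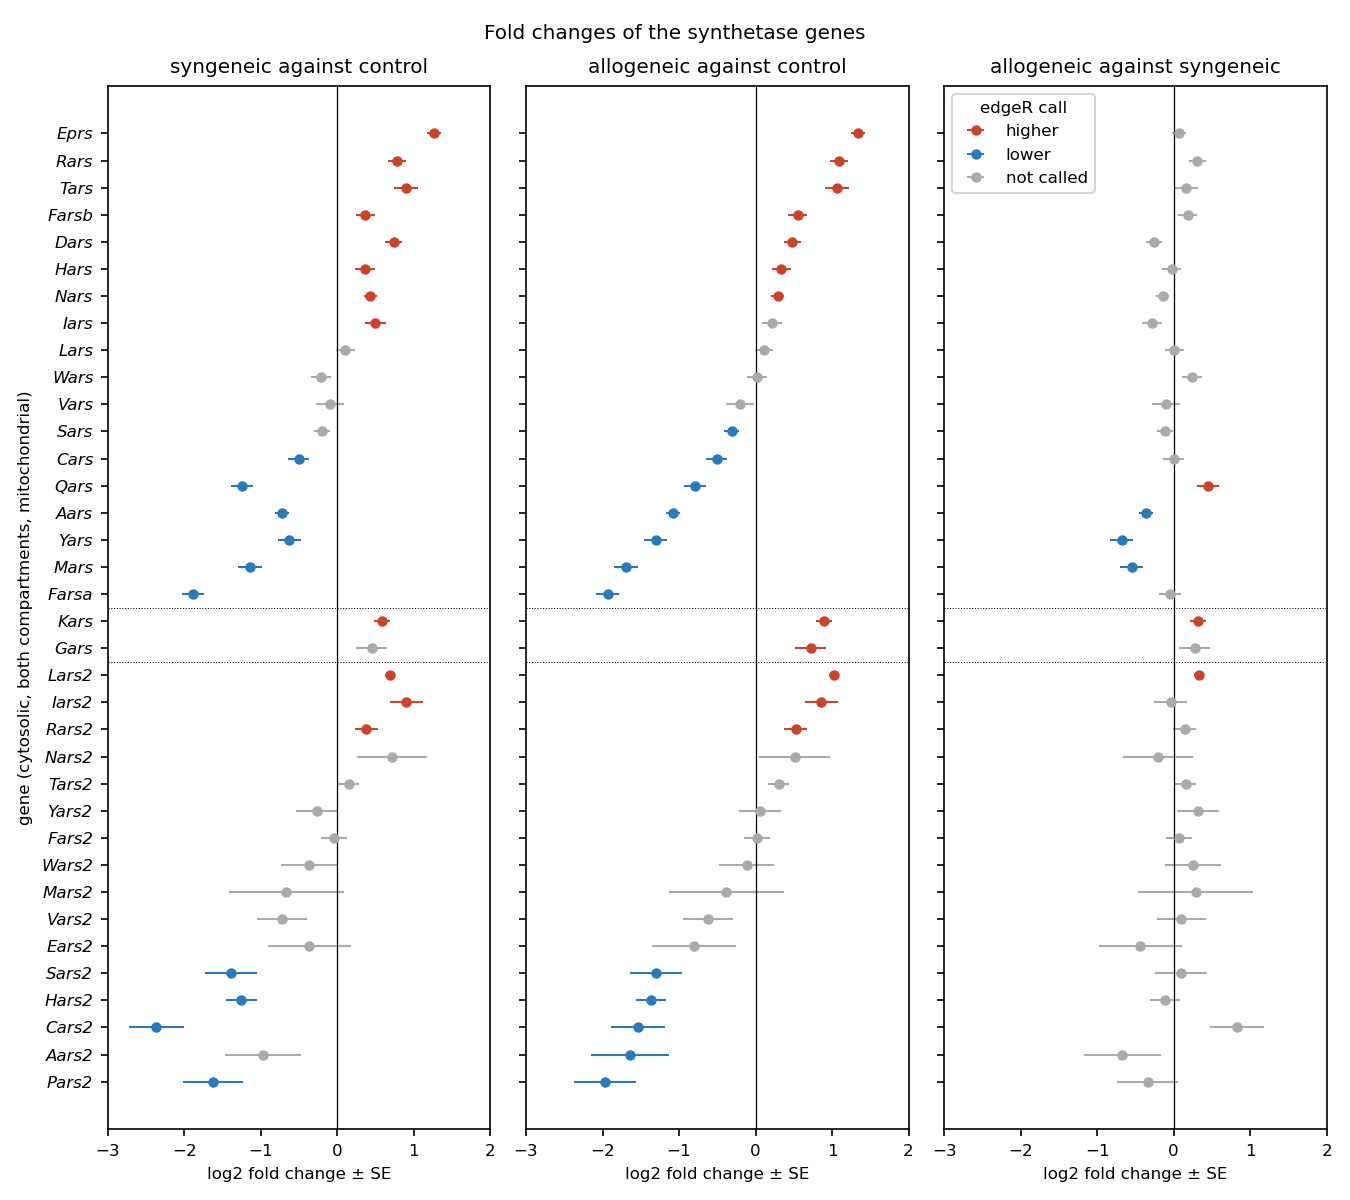
Log2 fold change (horizontal axis) of 36 of the 37 genes with its SE as the bar, for the 3 comparisons; colours show genes called higher or lower by edgeR at an adjusted p under 0.05 and genes not called, and dotted lines separate cytosolic, both-compartment and mitochondrial genes. The panels against control spread from below -1.5 to above 1, whereas 6 genes are called in allogeneic against syngeneic.

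Allogeneic and syngeneic microglia were compared to ask what GvHD added to irradiation and transplantation. Few synthetase genes were called. Of 37 genes 3 rose (8.11%, beside 10.1% of all genes), 3 fell (8.11%, beside 6.38%) and 31 were not called, and the median was 0.01 beside -0.01 for all genes. The genes that rose were Lars2, Qars and Kars, and those that fell were Yars, Aars and Mars. Over the whole table, library totals alone gave 844 genes higher and 2108 lower, in place of 1288 and 810, and with them none of the 37 rose and 7 fell by edgeR. At an unadjusted p under 0.05 the count of rises with library totals was also 0. With TMM or its own scaling, 3 rose by edgeR, 4 by DESeq2 and 2 by limma-voom.

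Yars, with 4 allogeneic libraries below all 4 syngeneic ones, fell by 0.68 ± 0.15 (edgeR adjusted p = 0.00372). Aars fell by 0.36 ± 0.09 without overlap (edgeR adjusted p = 0.00972) and Mars fell by 0.55 ± 0.16 with overlap (edgeR adjusted p = 0.0196). Yars was called under every alternative run, whereas Aars was lost with the offset for GC content and length (-0.22, edgeR adjusted p = 0.127). Mars was lost without syngeneic replicate 4 or allogeneic replicate 1 or 2 (edgeR adjusted p = 0.0576 to 0.0682).

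Lars2 rose by 0.34 ± 0.06 without overlap (edgeR adjusted p = 0.000974), and this call was lost with library totals only (0.13, edgeR adjusted p = 0.148). Qars, which had fallen against control in both groups, was higher in allogeneic than in syngeneic libraries by 0.45 ± 0.14 (edgeR adjusted p = 0.0383), with overlap. Kars differed by 0.32 ± 0.10 (edgeR adjusted p = 0.0463), with overlap. Each of these last calls was lost in 7 of 12 fits that left out 1 library, where edgeR adjusted p ran from 0.0577 to 0.124 for Qars and from 0.0571 to 0.178 for Kars. Rars was not called (0.31 ± 0.11, edgeR adjusted p = 0.0714), although its 4 allogeneic libraries all lay above the syngeneic ones. The scaffold gene Aimp1 rose by 0.39 ± 0.11, while Aimp2 (0.28 ± 0.13) and Eef1e1 (0.23 ± 0.15) were not called.

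**Figure D4:**
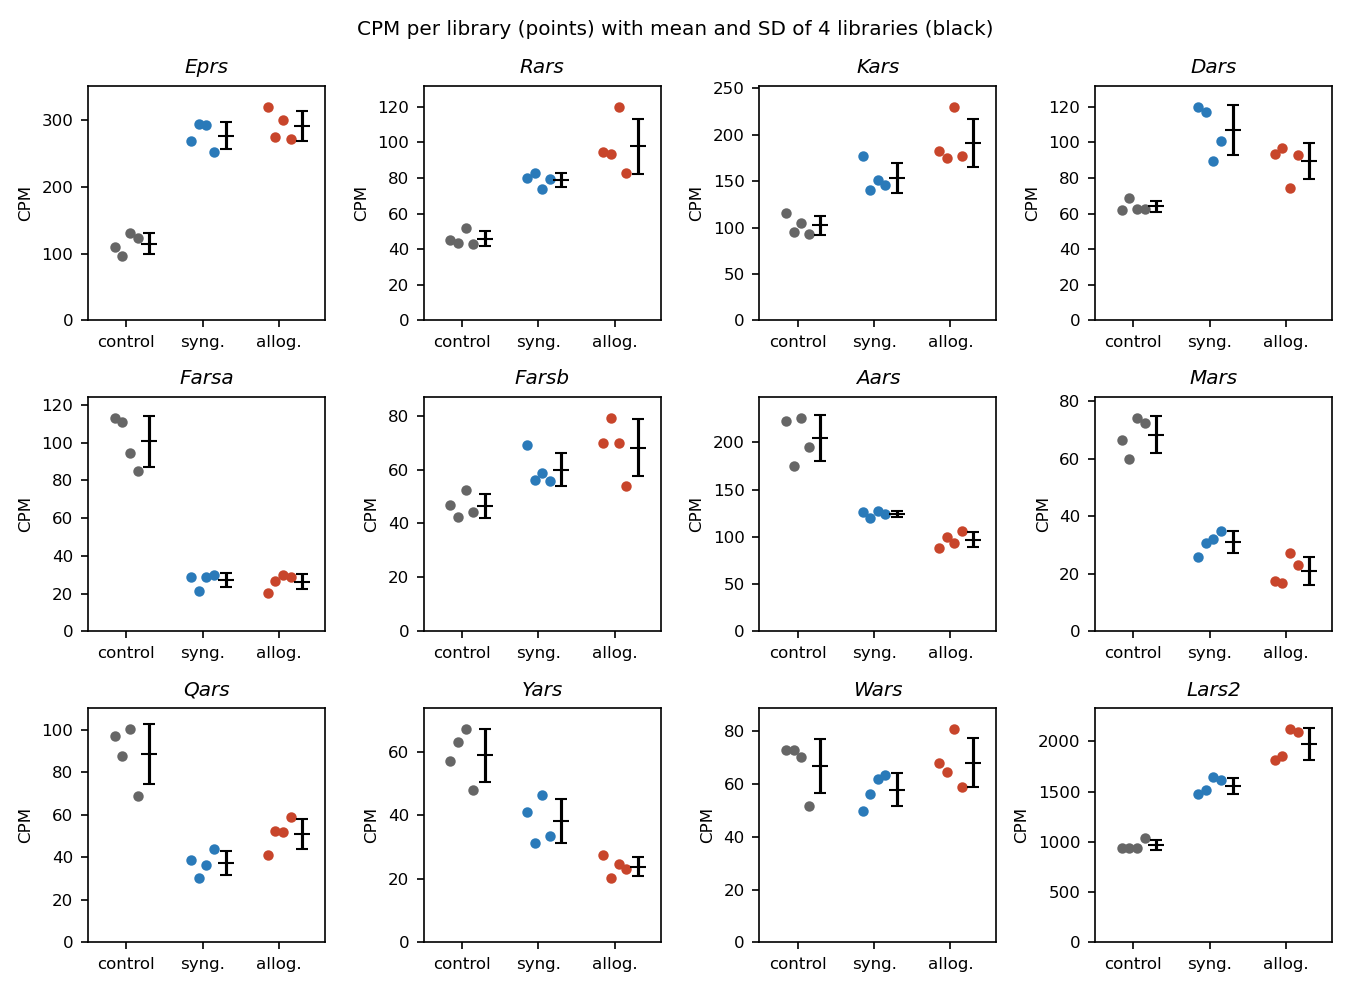
CPM per library (vertical axes, each from 0) of 12 synthetase genes in control, syngeneic and allogeneic libraries; points are libraries and black marks the mean with SD of 4. Eprs, Rars, Kars, Dars, Farsb and Lars2 are higher in the transplanted groups, Farsa, Aars, Mars, Qars and Yars are lower, and the 3 groups of Wars overlap.

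Wars was not called in any comparison with TMM scaling. It had 73.0, 72.8, 70.4 and 51.7 CPM in control, 49.7, 56.4, 61.9 and 63.4 in syngeneic, and 68.1, 64.4, 80.7 and 58.9 in allogeneic libraries, and all 3 groups overlapped. Allogeneic against syngeneic, Wars changed by 0.23 ± 0.13 (95% interval -0.04 to 0.51, edgeR adjusted p = 0.265). A 2-fold rise, which is 1 on this scale, lies outside the interval. Allogeneic against control the change was 0.02 ± 0.13 (interval -0.25 to 0.30), and syngeneic against control it was -0.21 ± 0.13 (interval -0.49 to 0.06). These 2 values depended on the scaling: with the offset for GC content and length they were 0.47 (edgeR adjusted p = 0.00347) and 0.26, and with library totals only they were -0.35 (edgeR adjusted p = 0.0232) and -0.38 (edgeR adjusted p = 0.0179).

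In the same libraries interferon-gamma response genes were far higher. Of 24 such genes 23 rose in allogeneic against syngeneic microglia, beside 10.1% of all genes, with a median of 2.31. Their summed level was 1337 to 1464 CPM in control, 1654 to 2046 in syngeneic and 19353 to 24073 in allogeneic libraries. Most of the allogeneic sum was Cd74, with a mean of 13689 of 21546 CPM. Wars2, the mitochondrial tryptophanyl synthetase, had 7.96, 7.94, 18.8 and 18.4 CPM in control, 8.25, 9.76, 17.8 and 5.28 in syngeneic, and 13.5, 11.8, 15.6 and 8.18 in allogeneic libraries. Control replicates of Wars2 differed by more than the groups did, and its change in allogeneic against syngeneic was 0.26 ± 0.36.

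Of 14 genes for tryptophan catabolism and transport 10 were tested, and in allogeneic against syngeneic microglia 2 rose, 1 fell and 7 were not called. Over all genes 10.1% rose and 6.38% fell in this comparison. Haao, which makes the quinolinic acid precursor, rose by 2.22 ± 0.48 in allogeneic against syngeneic microglia and stood at 7.98 to 17.9 CPM there. Kynu, kynureninase, rose by 3.98 ± 1.16 at 1.92 to 6.27 CPM, and the amino acid transporter gene Slc7a8 fell by 0.53 ± 0.08. Ido1, the interferon-inducible enzyme that opens the pathway, did not exceed 0.0796 CPM in any library.

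**Figure D5:**
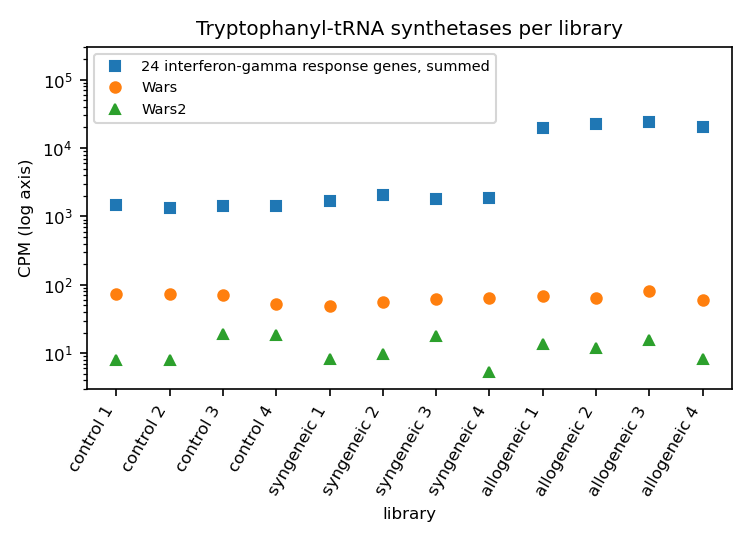
CPM on a log axis (vertical) in each of the 12 libraries (horizontal) for Wars, Wars2 and the sum of 24 interferon-gamma response genes. The interferon sum is 1337 to 2046 in control and syngeneic libraries and 19353 to 24073 in allogeneic ones, while Wars stays between 49.7 and 80.7. In allogeneic libraries most of the sum is the single gene Cd74.

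Because cytosolic synthetase genes are known Atf4 targets, RefSeq promoter windows (GRCm38.p6, 250 bases before to 50 after the annotated start) were searched for the C/EBP-ATF element TGATGNAA on both strands. Of the 37 genes 26 had a window. The element was found in 5 of these genes, beside 4.0% of all 32851 windows. The member count is of genes and the share over all is of windows, so they differ in unit. The matches are shown because the genes that hold one were called in opposite directions; capitals mark the 8 bases of the element, given 5′ to 3′ along the gene's strand. The stretches printed are shorter than the windows searched.
Aars (chr8:111033704-111033763, + strand): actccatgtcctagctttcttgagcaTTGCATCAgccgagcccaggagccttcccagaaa
Gars (chr6:55037945-55038004, + strand): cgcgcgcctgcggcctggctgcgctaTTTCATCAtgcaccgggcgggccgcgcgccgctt
Iars (chr13:49682111-49682149, + strand): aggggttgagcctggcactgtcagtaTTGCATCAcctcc
Tars (chr15:11399640-11399699, - strand): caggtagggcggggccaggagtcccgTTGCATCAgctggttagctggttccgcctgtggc
Yars (chr4:129189880-129189922, + strand): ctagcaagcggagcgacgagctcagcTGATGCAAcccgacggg

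Counting the annotated start as 0, the element began at -112 in Aars, -30 in Gars, 7 in Iars, -15 in Tars and 3 in Yars, and Aars held a further match at 9. Tars rose against control in both transplanted groups, Iars rose in syngeneic and Gars in allogeneic microglia, while Aars and Yars fell in both. A match is a description of the letters and not a measured binding site. No match overlapped those of the other motifs searched. The interferon motif GAS, TTCNNNGAA, was found in 3 of the 26 genes with a window (Aars, Kars and Nars2), beside 8.3% of all windows. The interferon-stimulated response element, ISRE, was found in 1 of these genes (Qars), beside 3.4% of all windows. Wars was among the genes with no window.

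Other Atf4 target and amino acid response genes were also mixed. Of 33 such genes 31 were tested. Among all genes tested, 26.4% rose and 25.6% fell in syngeneic against control. The shares were 28.2% and 29.1% in allogeneic against control, and 10.1% and 6.38% in allogeneic against syngeneic. Against control, 8 rose and 5 fell in syngeneic microglia, with a median of 0.16, among them Mthfd2, a mitochondrial folate enzyme (1.24 ± 0.18), and the translation repressor gene Eif4ebp1 (0.78 ± 0.13), while Slc3a2, the heavy chain of amino acid exchangers, fell by 0.87 ± 0.12. In allogeneic against control 12 rose and 3 fell, with Mthfd2 at 1.58 ± 0.18 and Slc3a2 at -1.03 ± 0.12. In allogeneic against syngeneic 4 rose, namely Nupr1, Eif4ebp1, Cebpb and Ddit3, and none fell by edgeR (none also at an unadjusted p under 0.05, by DESeq2 or by limma-voom, and 2 by edgeR with library totals). Ddit3 shares 68 exon bases with its neighbour Mars. The Atf4 mRNA itself rose by 0.31 ± 0.10 in syngeneic against control (edgeR adjusted p = 0.0168). It was not called in allogeneic against control (0.24 ± 0.10, edgeR adjusted p = 0.0512) or allogeneic against syngeneic (-0.07 ± 0.10, edgeR adjusted p = 0.741).

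Of 8 genes for eIF2, its kinases, its phosphatase subunits and Gcn1l1, 2 rose and 5 fell in syngeneic against control. In allogeneic against control 2 rose and 3 fell, and in allogeneic against syngeneic 2 rose and 1, Gcn1l1, fell. The shares of all genes that rose and fell were 26.4% and 25.6%, 28.2% and 29.1%, and 10.1% and 6.38% in these 3 comparisons. Eif2s1, the alpha subunit that the kinases phosphorylate, rose by 1.42 ± 0.08 in syngeneic and 1.73 ± 0.08 in allogeneic against control. Eif2ak2, the interferon-inducible kinase PKR, rose in these comparisons by 1.34 ± 0.13 and 2.57 ± 0.14, and by 1.23 ± 0.13 in allogeneic against syngeneic. Gcn1l1, whose product helps uncharged transfer RNA to activate Gcn2, fell by 0.69 ± 0.10, 1.64 ± 0.10 and 0.95 ± 0.10 in the same order. Eif2ak4, the gene of Gcn2 itself, fell by 1.08 ± 0.26 in syngeneic against control (edgeR adjusted p = 0.00194) and was not called in allogeneic against control (-0.54 ± 0.26, edgeR adjusted p = 0.083). Ppp1r15a, a phosphatase subunit gene, fell by 1.26 ± 0.20 and 0.80 ± 0.19. Phosphorylation of eIF2 was not measured.

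Of 12 genes for mitochondrial transfer RNA processing and modification, 2 rose and 4 fell in syngeneic against control, led by the pseudouridine synthase gene Pus1 (-2.46 ± 0.31), Hsd17b10 (0.64 ± 0.12) and Gtpbp3 (-1.35 ± 0.26), and 3 rose and 4 fell in allogeneic against control. Of all genes tested, 26.4% rose and 25.6% fell in syngeneic against control, and 28.2% rose and 29.1% fell in allogeneic against control. Of 7 synthetase-like and editing genes, Dtd2, which removes wrongly attached amino acids, rose by 0.86 ± 0.13 and 1.12 ± 0.14 in these comparisons, and no gene of the list fell by edgeR or DESeq2; 1 did in each comparison at an unadjusted p under 0.05 or with library totals, and 1 by limma-voom in syngeneic against control. Of 6 genes for indirect charging and initiator formylation, Gatb and Mtfmt fell in syngeneic and Gatc in allogeneic against control. No gene of these 3 lists was called by edgeR, DESeq2 or limma-voom in allogeneic against syngeneic, and Gatb and Gatc alone had an unadjusted edgeR p under 0.05. By edgeR 10.1% of all genes rose and 6.38% fell there.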

How the data were processed

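RNA-seq counts per gene symbol were used for 12 libraries of sorted microglia. The authors deposited 1 table of raw counts, and its values are whole numbers; Trimmomatic 0.36, STAR 2.5.2b and the mouse build mm9 are named in the submitters' processing notes. Which tool counted the reads, on which annotation and strand, is not stated in the labels, so values of overlapping genes are uncertain. The table has 24328 symbols, 18018 with a count. As the reference annotation at hand (GENCODE, GRCm38) is of another build, it served for names, lengths, GC content and neighbours only, and promoter windows are RefSeq's on GRCm38.p6.

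Tests, CPM and fold changes come from edgeR 4.0.16 under R 4.3.3. Genes passed filterByExpr at its minimum count of 10, libraries were scaled by TMM, and all 12 entered 1 robust quasi-likelihood model with a mean per group. P-values were Benjamini-Hochberg adjusted over 12695 genes, with a call at adjusted p under 0.05. Spearman correlations of libraries within a group were 0.975 to 0.984. The groups are separate mice per the series' design text, 4 each; no batch is given. The method was tested on simulated counts. The settings varied were RLE scaling, library totals only, an absent filter, a minimum of 1 CPM in 4 libraries, the tools DESeq2 1.42.0 and limma-voom (limma 3.58.1), only the compared groups, the replicate number as a block, an offset for GC content and length (loess span 0.3; 12620 genes have both) and each library left out. Leaving Rn45s out of the table was added after the data were seen.

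The members, gene lists and tests were chosen with earlier results of these data known. Values per library are given for up to 4 called members with the smallest p per direction and comparison, for Wars, Wars2, Eprs, Gars and Kars, and for Farsb, added after its values were seen; up to 3 called genes per list and comparison may be named. Genes that the rule gives and the text leaves out are not reported here, and 1 member is left out of the plots; counts and sums include them. Atf4, Cebpb, Ddit3, Ido1, Kynu, Gatb, Gatc and Mtfmt stand beside these as defining genes of their lists or as small counts. P2ry12, Csf1r, Ccr2, Lyz2 and Cd74 are named to show what the sums of their lists hold. Of the marker lists, B and plasma cell, neutrophil, endothelial, astrocyte, oligodendrocyte and neuron markers each summed to at most 101 CPM in any library.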

Additional observations from a re-analysis of the deposited data

Results flagged for a closer look

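Among 111 sets of 4 libraries (37 genes in 3 groups), 9 (8.11%) held a library that stood far from the other 3 by Dixon's criterion, where chance alone flags about 1 in 20. In allogeneic libraries, Cars stood at 47.9 CPM in replicate 4 against 34.2 to 36.2 in the others, Dars at 74.3 in replicate 3 against 93.2 to 96.6, Kars at 229 in replicate 3 against 175 to 182, and Nars at 432 in replicate 2 against 493.1 to 493.4. In syngeneic libraries, Farsa stood at 21.5 CPM in replicate 2 against 28.6 to 29.8, and Mars2 at 0.0274 in replicate 3 against 5.26 to 6.23. In control libraries, Dars stood at 68.7 CPM in replicate 2 against 62.0 to 62.9, Lars2 at 1039 in replicate 4 against 940 to 944, and Wars at 51.7 in replicate 4 against 70.4 to 73.0.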

How the results depend on the processing

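Counts of calls moved by over 1.5 times in allogeneic against syngeneic, where the 3 rises became 0 and the 3 falls 7 with library totals only, the 3 rises became 1 with the offset for GC content and length, and 1 to 3 rises were left when 1 library was left out, and in allogeneic against control, where the 12 rises became 5 with library totals only. Control replicate 2, syngeneic replicates 2 and 3 and allogeneic replicate 3 each left 1 rise in allogeneic against syngeneic when removed. Scaling by library totals moved the median of all genes from -0.01 to -0.22 in that comparison, from -0.03 to -0.20 in syngeneic against control and from -0.07 to -0.44 in allogeneic against control. Over the 37 genes, called or not, directions turned with library totals only for 9 in allogeneic against syngeneic, 2 in syngeneic against control and 8 in allogeneic against control, and with the offset for 4, 5 and 4. Of those called with TMM scaling, together with Eprs and Wars, they turned with library totals only for Eprs in allogeneic against syngeneic (-0.13) and, in allogeneic against control, for Hars (-0.031), Nars (-0.079) and Wars (-0.35). With the offset they turned for Rars2 (-0.031) and Wars (0.26) in syngeneic against control and for Rars2 (-0.022) and Sars (0.15) in allogeneic against control. With 1 library left out, allogeneic against control ran from -0.0895 to 0.085 for Wars and from -0.31 to 0.094 for Wars2. The cause was not tested. In allogeneic against control, Hars was lost without control replicate 2 or 4 or allogeneic replicate 3 or 4 (edgeR adjusted p = 0.0822 to 0.112), and Sars without allogeneic replicate 1 (edgeR adjusted p = 0.0541). In syngeneic against control, Hars was lost without control replicate 2 or 4 or syngeneic replicate 3 (edgeR adjusted p = 0.0631 to 0.0754). Same-numbered libraries did not deviate together (correlations -0.015 to 0.032), so no pairing by number was seen. Such correlations cannot show whether same-numbered mice were handled together. With the replicate block 2 genes rose and 3 fell in allogeneic against syngeneic, whereas against control 12 rose and 11 fell in syngeneic microglia and 12 rose and 12 fell in allogeneic microglia. Leaving out Rn45s moved no count of calls by over 1.5 times.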
